A study of Mus musculus with 12 samples.

Results

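The epidermal connexins Gjb2, Gjb6, Gja1 and Gjb5 were followed across 12 bulk RNA-seq libraries of mouse skin. They are 4 of the 17 connexin genes analysed here and 4 of the 53465 gene identifiers counted, taken by name. They were chosen by name with earlier results of the same libraries known, including group differences in RNA level, so their levels and fold changes are given as a description, without p-values, and the number past a threshold only beside the share of all genes past it. Tests are given for the other connexins and for genes of related lists.

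The libraries fall into 4 groups of 3: irradiated DE2 skin, irradiated WT skin, untreated DE2 skin and untreated WT skin. WT mice carry wild-type Foxp3, which encodes the transcription factor of regulatory T cells. The altered genotype is written Foxp3-E2, Foxp3-DE2 and Foxp3dExon2 in different places of the record and was taken as 1 genotype, called DE2 here. Irradiated skin was a shaved patch of the back flank given 6 doses of ultraviolet B light (UVB). The dose is 200 mJ/cm2 in the sample labels and 100 mJ/cm2 in the protocol, which could not be settled. The sources used here do not give age, sex, which libraries share an animal, or whether the untreated site was shaved too. The p-values therefore measure the spread between libraries, which may in part be technical.

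Connexins are membrane proteins that assemble in rings of 6 subunits into hemichannels, and hemichannels of neighbouring cells dock to form gap junctions. Ions and small metabolites pass from cell to cell through them. Gjb2 encodes connexin 26, Gjb6 connexin 30, Gja1 connexin 43 and Gjb5 connexin 31.1. In mammalian skin connexin 43 is the widespread connexin of the keratinocyte layers, while connexins 26 and 30 are found in hair follicles and are known to increase in wounded or hyperproliferative epidermis. Connexin 31.1 is found in differentiating keratinocytes. Inherited changes in human GJB2, GJB6 and GJA1 cause disorders that include deafness or skin disease.

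Total counts ran between 2809142 and 4741726 per library, with a median of 4021505.5. Krt5, Krt14, Krt1 and Krt10 and the rest of the keratinocyte markers were counted in all groups, as the skin label implies. The untreated DE2 libraries stood apart. Their hair follicle markers summed to between 142.9 and 752.8 CPM (counts scaled to 1000000 per library), against 10334 to 19882 CPM in untreated WT skin. Their melanocyte markers summed to between 12.17 and 22.91 CPM, against 1057 to 1176 CPM in untreated WT skin, and their skeletal muscle markers to between 39262 and 80004 CPM, against 17327 to 21427 CPM. Foxp3 had 8 counts over the 3 irradiated DE2 libraries and 0 in each of the other libraries, too few to check the genotype, and a count per gene does not show which exons were read.

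Gjb2 (ENSMUSG00000046352, chr14:57098600-57104702, minus strand, GRCm38) and Gjb6 (ENSMUSG00000040055, chr14:57123303-57133611, minus strand) are neighbours, 18.6 kb apart with the annotated gene Gm4491 between them. Gja3 lies 40.5 kb beyond Gjb2 on the same strand. Gjb5 (ENSMUSG00000042357, chr4:127354809-127358181, minus strand) and Gja1 (ENSMUSG00000050953, chr10:56377330-56402513, plus strand) lie on other chromosomes. No other annotated gene overlaps these 4 genes. Gjb2 and Gjb6 had the same order of group means, so the sequences before the starts of the 4 genes are given. They are the 250 bases before each annotated start (RefSeq, GRCm38.p6, on the strand of the gene). Motif matches are in capitals and the rest in lower case. The windows are chr14:57104703-57104952 for Gjb2, chr14:57133612-57133861 for Gjb6, chr10:56377050-56377299 for Gja1 and chr4:127358165-127358414 for Gjb5.
Gjb2: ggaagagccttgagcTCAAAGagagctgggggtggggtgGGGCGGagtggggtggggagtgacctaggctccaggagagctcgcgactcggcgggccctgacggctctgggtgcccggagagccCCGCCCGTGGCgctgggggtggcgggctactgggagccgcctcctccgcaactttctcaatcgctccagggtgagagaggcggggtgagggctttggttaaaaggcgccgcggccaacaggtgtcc
Gjb6: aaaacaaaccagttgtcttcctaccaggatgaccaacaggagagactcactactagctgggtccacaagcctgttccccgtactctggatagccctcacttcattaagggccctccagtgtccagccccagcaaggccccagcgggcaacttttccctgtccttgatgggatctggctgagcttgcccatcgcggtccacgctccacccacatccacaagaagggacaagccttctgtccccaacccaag
Gja1: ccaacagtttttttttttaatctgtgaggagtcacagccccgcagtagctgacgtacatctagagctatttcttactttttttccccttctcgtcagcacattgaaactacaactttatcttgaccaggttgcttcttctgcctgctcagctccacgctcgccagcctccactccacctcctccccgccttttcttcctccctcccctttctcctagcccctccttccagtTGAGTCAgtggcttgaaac
Gjb5: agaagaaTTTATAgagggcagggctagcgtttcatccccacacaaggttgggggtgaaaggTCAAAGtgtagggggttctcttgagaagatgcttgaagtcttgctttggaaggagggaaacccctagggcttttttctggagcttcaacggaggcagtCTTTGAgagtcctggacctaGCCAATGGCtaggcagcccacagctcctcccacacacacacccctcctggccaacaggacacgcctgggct
These motifs were searched on both strands: the TATA box (TATAAA), the CCAAT box (CCAAT), the GC box (GGGCGG), and the AP-1 (TGANTCA), AP-2 (GCCNNNGGC), STAT (TTCNNNGAA) and LEF/TCF (CTTTGA) motifs. The Gjb2 window held GC boxes starting 211 and 126 bases before the start, an AP-2 match at 124 that overlaps the nearer GC box, and an LEF/TCF match at 235. The Gjb6 window held none of them. The Gja1 window held an AP-1 match 19 bases before the start. The Gjb5 window held a TATA match at 243, LEF/TCF matches at 189 and 91, and an AP-2 match at 71 with a CCAAT box inside it. Over 32851 mouse windows of the same length, 32.7% held a GC box, 13.7% an AP-2, 13.8% an LEF/TCF, 6.75% an AP-1, 12.4% a TATA, 33.8% a CCAAT and 7.02% a STAT match. GC content was 69.2% with 18 CpG in Gjb2, 56.8% with 5 CpG in Gjb6, 50% with 6 CpG in Gja1 and 54.4% with 3 CpG in Gjb5, where the median window had 52.4% and 6 CpG. A match is a string of letters and not a site shown to be bound.

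Gjb2, Gjb6 and Gja1 were lowest in untreated DE2 skin by a wide margin, and Gjb5 was not. Gjb2, a channel subunit of hair follicle and activated epidermis, had 586.8, 631.9 and 455.7 CPM in irradiated DE2 skin, against 13.16, 10.75 and 5.835 CPM in untreated DE2 skin. It had 386, 388.1 and 418.4 CPM in irradiated WT skin, against 251.6, 401.7 and 279.7 CPM in untreated WT skin. The DE2 groups lay far apart, and the WT groups overlapped. Means were 558.1 ± 91.5, 397.5 ± 18.1, 9.916 ± 3.73 and 311 ± 79.75 CPM in irradiated DE2, irradiated WT, untreated DE2 and untreated WT skin (SD, n = 3 each). The order was irradiated DE2, irradiated WT, untreated WT, untreated DE2, of which irradiated and untreated WT did not differ beyond their spread. Untreated DE2 skin gave 54, 38 and 21 Gjb2 counts, so the low level rests on few reads per library.

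Gjb6, which can share channels with the Gjb2 product, had the same order but a larger step between the irradiated genotypes. It had 270.7, 363.5 and 174.6 CPM in irradiated DE2 skin, against 93.42, 88.8 and 88.18 CPM in irradiated WT skin. It had 4.387, 2.547 and 2.223 CPM in untreated DE2 skin, from 18, 9 and 8 counts, against 77.5, 82.48 and 104.6 CPM in untreated WT skin. The irradiated DE2 libraries were the highest of the 12 and the untreated DE2 libraries the lowest, and the WT groups overlapped. Means were 269.6 ± 94.45, 90.1 ± 2.86, 3.05 ± 1.17 and 88.2 ± 14.45 CPM in irradiated DE2, irradiated WT, untreated DE2 and untreated WT skin (SD, n = 3 each).

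Gja1, the widespread connexin of keratinocytes, differed from Gjb2 and Gjb6 in its order: both WT groups lay above irradiated DE2 skin. It had 871.8, 744.9 and 641.6 CPM in irradiated DE2 skin, against 1413, 1170 and 1373 CPM in irradiated WT skin. It had 205.4, 116.9 and 123.9 CPM in untreated DE2 skin, against 1003, 1144 and 1263 CPM in untreated WT skin. The irradiated and untreated WT ranges overlapped, and neither DE2 range overlapped another group. Means were 752.8 ± 115, 1319 ± 130.5, 148.7 ± 49.2 and 1137 ± 130.2 CPM in irradiated DE2, irradiated WT, untreated DE2 and untreated WT skin (SD, n = 3 each).

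Gjb5, of the differentiating layers, had its lowest levels in irradiated DE2 skin. It had 60.93, 42.35 and 57.96 CPM in irradiated DE2 skin, against 157.7, 87.15 and 66.13 CPM in untreated DE2 skin. It had 68.49, 67.4 and 87.27 CPM in irradiated WT skin, against 81.2, 80.15 and 115.7 CPM in untreated WT skin. The 2 genotypes overlapped without UVB, the 2 WT groups overlapped, and irradiated DE2 skin lay below all other libraries. Means were 53.75 ± 9.98, 74.4 ± 11.2, 103.7 ± 48 and 92.3 ± 20.2 CPM in irradiated DE2, irradiated WT, untreated DE2 and untreated WT skin (SD, n = 3 each). The wide spread of untreated DE2 skin comes from replicate 1, which also had that group's highest Gja1, Gjb2, Gjb6 and hair follicle sum and its lowest muscle sum.

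**Figure D1:**
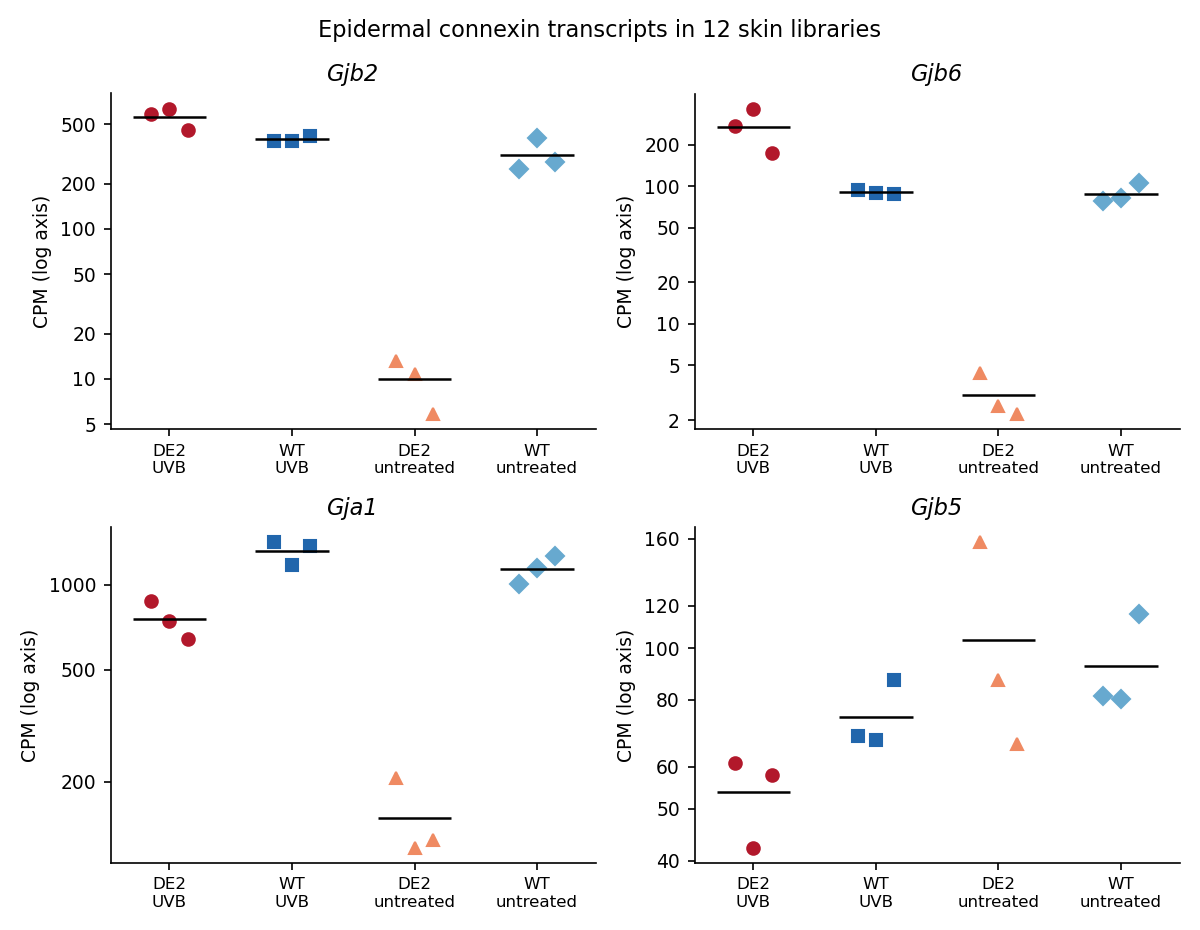
Levels of Gjb2, Gjb6, Gja1 and Gjb5 in CPM on log axes, with 1 point per library and a line at the group mean, for irradiated DE2, irradiated WT, untreated DE2 and untreated WT skin. Untreated DE2 skin was lowest for Gjb2 (5.835 to 13.16 CPM), Gjb6 (2.223 to 4.387 CPM) and Gja1 (116.9 to 205.4 CPM), while Gjb5 was lowest in irradiated DE2 skin (42.35 to 60.93 CPM).

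Fold changes came from 1 model over all 15126 genes tested and 12 libraries (edgeR's quasi-likelihood fit), and are given as log2 fold changes with their standard errors. Irradiated over untreated DE2 skin gave 5.8 ± 0.31 for Gjb2, 6.43 ± 0.34 for Gjb6, 2.34 ± 0.25 for Gja1 and -0.95 ± 0.29 for Gjb5. In this comparison 27.8% of all genes passed an adjusted p of 0.05, and 3 of the 4 connexins did so as higher and 1 as lower. The 3 libraries of each group did not overlap for 4 of the 4 connexins, and for 41.5% of all genes. Irradiated over untreated WT skin gave 0.35 ± 0.24 for Gjb2, 0.03 ± 0.25 for Gjb6, 0.21 ± 0.24 for Gja1 and -0.31 ± 0.29 for Gjb5. There 0.0198% of all genes passed, with none of the 4 among them, and the groups overlapped for each of the 4, where 10.1% of all genes did not overlap.

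Between genotypes with UVB, DE2 over WT gave 1.58 ± 0.25 for Gjb6, 0.49 ± 0.24 for Gjb2, -0.81 ± 0.24 for Gja1 and -0.47 ± 0.29 for Gjb5. Of the 4, 1 passed, as higher, where 2.96% of all genes did (2.35% higher and 0.608% lower); the groups did not overlap for 4 of the 4 and for 21.3% of all genes. Without UVB, DE2 over WT gave -4.96 ± 0.3 for Gjb2, -4.82 ± 0.33 for Gjb6, -2.93 ± 0.25 for Gja1 and 0.17 ± 0.28 for Gjb5. Here 3 of the 4 passed as lower, where 23% of all genes passed; the groups did not overlap for 3 of the 4 and for 39.8% of all genes. The difference between the UVB effects in DE2 and in WT skin (the interaction) was 5.45 ± 0.38 for Gjb2, 6.4 ± 0.41 for Gjb6, 2.12 ± 0.34 for Gja1 and -0.64 ± 0.41 for Gjb5, with 3 of the 4 passing, all above 0, where 10.5% of all genes did (5.64% above 0 and 4.84% below). These comparisons share libraries, so the large values of UVB in DE2 skin, of DE2 without UVB and of the interaction all rest on the same 3 untreated DE2 libraries. The genes were listed with these values known, and nothing is read from the counts.

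Gjb5 depended on untreated DE2 replicate 1: without it, the log2 fold change was -0.52 for UVB in DE2 skin, -0.27 for DE2 over WT without UVB and -0.2 for the interaction. The number of connexins past the threshold as lower with UVB in DE2 skin was then 0 in place of 1, as it also was without any 1 irradiated DE2 library. The same step moved Gja1 to 2.64, -3.24 and 2.43 for these comparisons. Gjb2 and Gjb6 kept log2 fold changes between 5.52 and 6.07 and between 6.16 and 6.8 for UVB in DE2 skin over the 12 alternatives run.

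**Figure D2:**
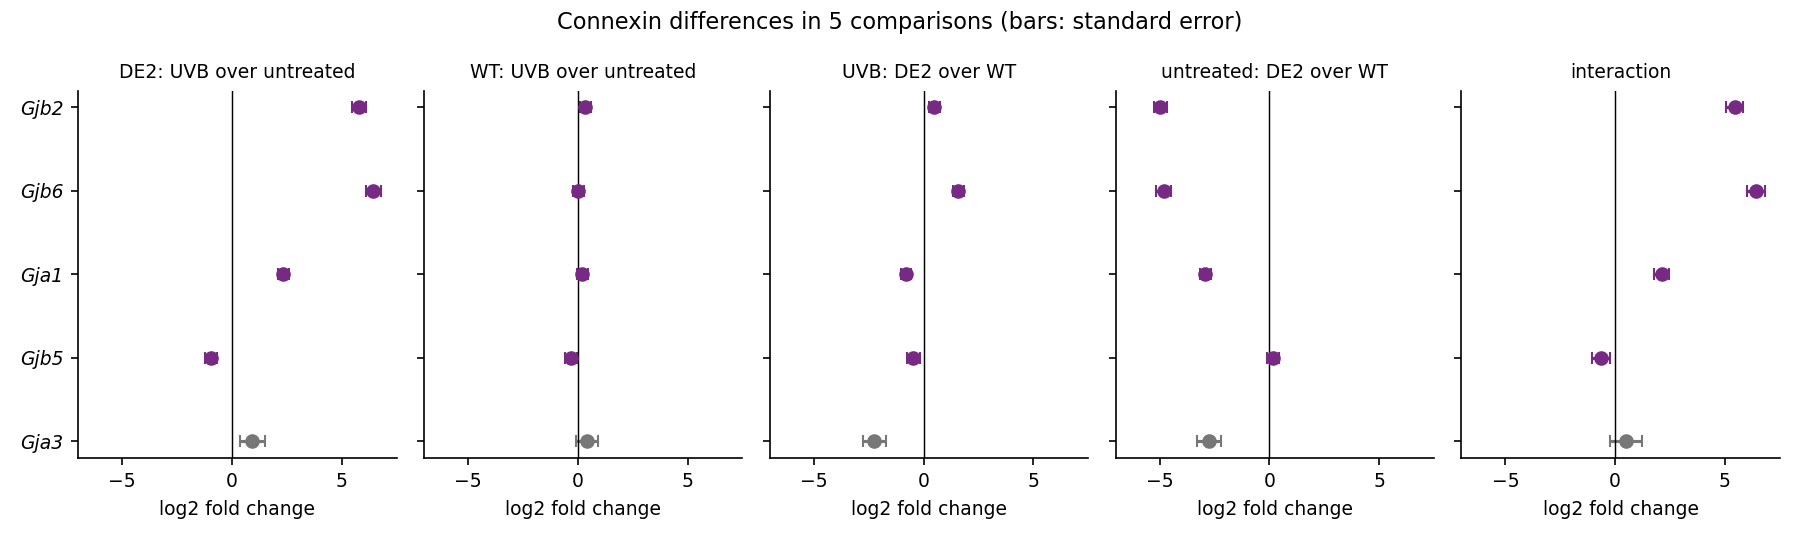
Log2 fold changes (points) with standard errors (bars) for the 4 epidermal connexins, in purple, and for Gja3, in grey, in 5 comparisons. UVB in WT skin lies between -0.31 and 0.43 for these genes, while Gjb2 and Gjb6 reach 5.8 and 6.43 with UVB in DE2 skin.

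Among the other connexins analysed, 6 of 13 passed the filter on low counts, as did 2 of the 3 pannexins, which form related membrane channels. Gja10, Gjd2, Gjd4 and Gje1 had no count in 46723321, which allows up to 0.0642 CPM over the 12 libraries.

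Gja3, connexin 46, lies beside Gjb2 and was low in both DE2 groups. It had 5.168, 5.324 and 10.57 CPM in irradiated DE2 skin, against 47.12, 26.32 and 25.24 CPM in irradiated WT skin. It had 4.874, 4.81 and 1.111 CPM in untreated DE2 skin, against 11.54, 31.45 and 30.43 CPM in untreated WT skin. Neither pair overlapped. Without UVB it was lower in DE2 than in WT skin (-2.75 ± 0.55, edgeR adjusted p = 0.0029), and likewise with UVB (-2.24 ± 0.53, adjusted p = 0.0328). The call with UVB was lost without irradiated DE2 replicate 1 (adjusted p = 0.142) or 2 (0.158) and without irradiated WT replicate 1 (0.14) or 3 (0.0644), in a range over the alternatives of 7.05e-05 to 0.158. Its value for UVB in DE2 skin did not pass (0.93 ± 0.57, adjusted p = 0.247).

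Panx1, the pannexin of keratinocytes, averaged 46.5, 44.3, 37.7 and 44.3 CPM in irradiated DE2, irradiated WT, untreated DE2 and untreated WT skin and did not pass in any of the 5 comparisons by edgeR. Gja4, Gja5, Gjb1, Gjc1, Gjc3 and Panx3 averaged at most 11.06 CPM in any group, with standard errors of 0.67 to 2.36 on the log2 scale, and none passed. With UVB in DE2 skin, with UVB in WT skin and for the interaction, none of the 8 other connexins and pannexins tested passed by edgeR or by DESeq2, and none had an unadjusted p under 0.05.

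Per kilobase of annotated exon, the 4 connexins together averaged 437.4, 370.7, 79.99 and 326.7 CPM per kb in irradiated DE2, irradiated WT, untreated DE2 and untreated WT skin. Gjb2 made up 53.1 ± 0.799%, 44.6 ± 1.7%, 5.25 ± 1.19% and 39.4 ± 6.83% of that sum in the same groups (SD, n = 3 each). Gjb6 made up 22.6 ± 4.46%, 9.11 ± 0.604%, 1.45 ± 0.0877% and 10.1 ± 1.35%, and Gjb5 7.39 ± 2.33%, 11.6 ± 1.18%, 74.6 ± 2.87% and 16.5 ± 3.2%. In untreated DE2 skin Gjb5 thus held most of the sum, and in irradiated DE2 skin Gjb2 and Gjb6 did.

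The place of Gja1 depended on the length used. With all exon bases (10257) it made up 16.9%, 34.6%, 18.7% and 34% of the sum in irradiated DE2, irradiated WT, untreated DE2 and untreated WT skin. With its longest coding transcript (3182 bases), a length chosen after the data were seen, it made up 37.9%, 62.2%, 42.4% and 61.4%, where Gjb2 made up 37%, 24.9%, 3.71% and 22.2% and Gjb5 held 52.6% in untreated DE2 skin. Gja1 was then above Gjb2 in 3 groups and about level with it in irradiated DE2 skin. By all exon bases the mean of Gjb2 was above that of Gja1 except in untreated DE2 skin. In untreated WT replicate 3 Gja1 held 35.62% and Gjb2 33.62%.

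**Figure D3:**
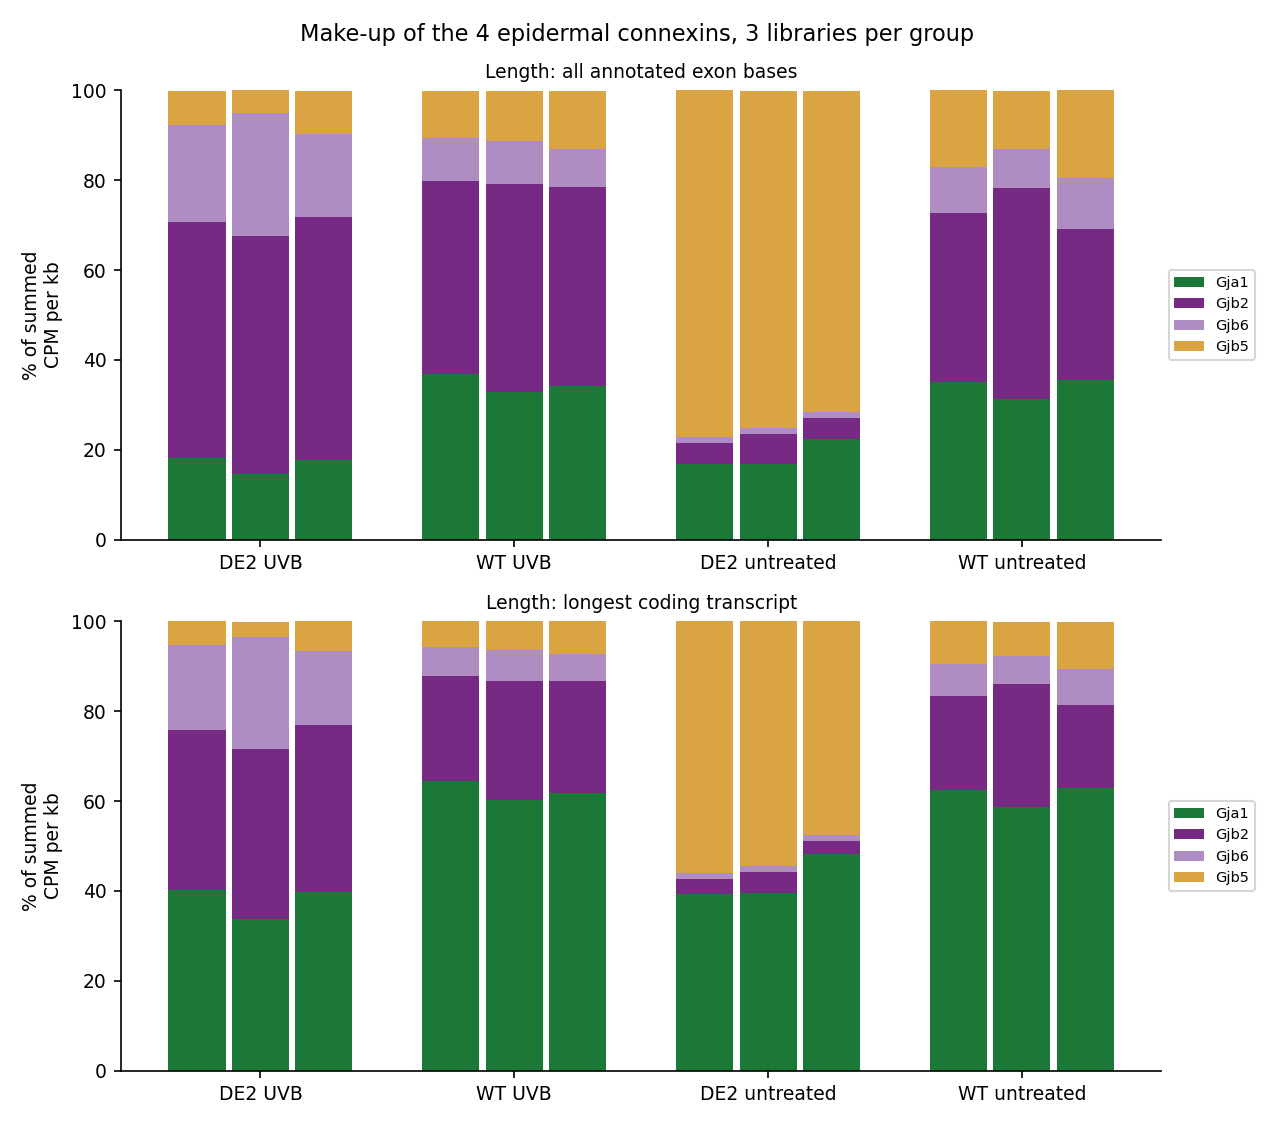
Percent of the summed CPM per kb of Gja1, Gjb2, Gjb6 and Gjb5 held by each gene, with 1 bar per library, using all exon bases (top) or the longest coding transcript (bottom). Gjb2 and Gjb6 are narrow bands in untreated DE2 skin, where Gjb5 takes 74.6% on average in the top panel and 52.6% in the bottom one.

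Ratios of counts within a library need no scaling between libraries. There were 0.4613, 0.5753 and 0.3832 Gjb6 counts per Gjb2 count in irradiated DE2 skin, against 0.242, 0.2288 and 0.2108 in irradiated WT skin, with no overlap. The ratio was 0.3333, 0.2368 and 0.381 in untreated DE2 skin, against 0.308, 0.2053 and 0.3741 in untreated WT skin, which overlapped. So in untreated skin, where the genotypes lay far apart for each gene, the ratio of the genes overlapped between them. Gja1 counts per Gjb2 count averaged 1.36 ± 0.16 in irradiated DE2, 3.32 ± 0.325 in irradiated WT, 15.9 ± 5.19 in untreated DE2 and 3.78 ± 0.852 in untreated WT skin (SD, n = 3 each). Gjb5 counts per Gja1 count averaged 0.0724 ± 0.0169, 0.0566 ± 0.00761, 0.682 ± 0.129 and 0.0809 ± 0.0107 in the same order of groups, and untreated DE2 skin overlapped no other group.

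**Figure D4:**
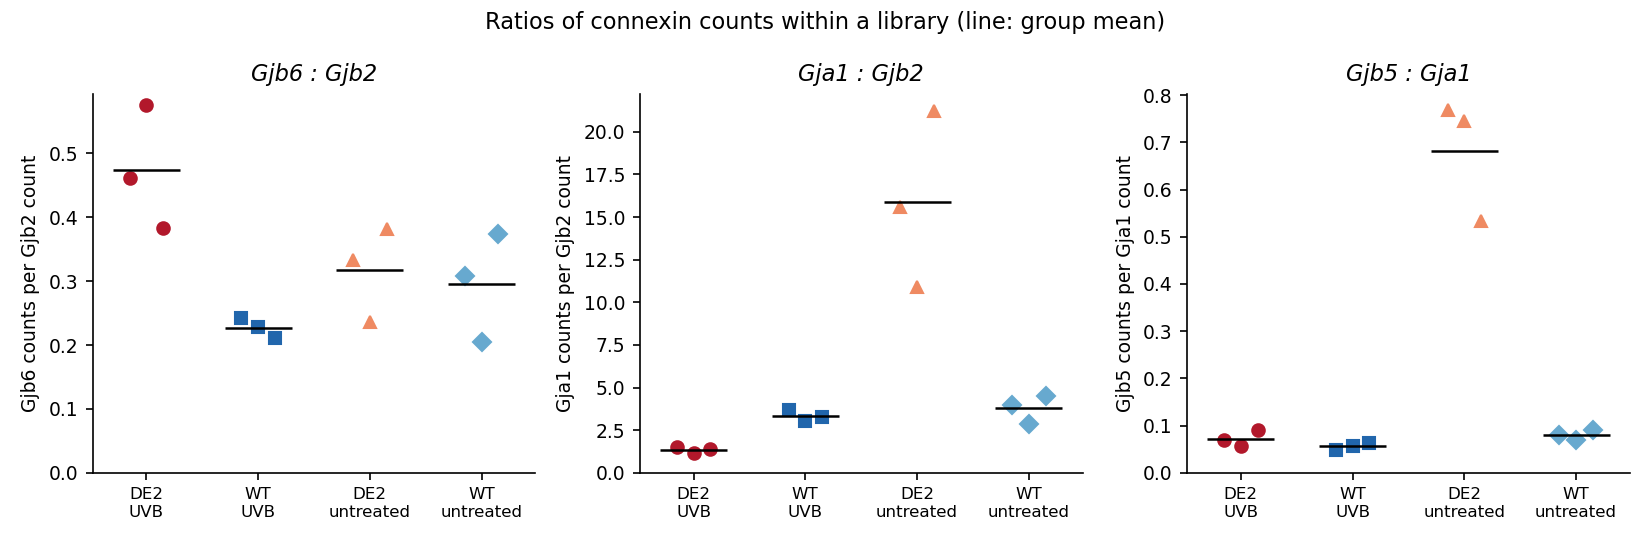
Ratios of raw counts within each library, 1 point per library and a line at the group mean, for Gjb6 to Gjb2, Gja1 to Gjb2 and Gjb5 to Gja1. Gja1 to Gjb2 reaches 10.87 to 21.24 in untreated DE2 skin and stays between 1.179 and 4.516 elsewhere, and Gjb6 to Gjb2 is highest in irradiated DE2 skin (0.3832 to 0.5753).

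In pieces of whole skin, fewer cells of a type and less RNA per cell cannot be told apart. Keratinocyte transcript was therefore set beside the connexins. Per 1000 counts of the basal keratins Krt5 and Krt14, Gjb2 had 31.3 ± 7.14, 126.6 ± 28.5, 1.69 ± 0.25 and 93.1 ± 42.1 counts in irradiated DE2, irradiated WT, untreated DE2 and untreated WT skin (SD, n = 3 each). Gjb6 had 15 ± 4.93, 28.5 ± 4.43, 0.525 ± 0.0599 and 25.4 ± 4.44, and Gja1 42.7 ± 12.7, 419.2 ± 94.5, 26.1 ± 4.76 and 329.9 ± 69.5. Gjb5 had 3.06 ± 0.96, 24 ± 8.03, 17.5 ± 2.67 and 26.4 ± 4.31. On this scale Gjb2 and Gjb6 in irradiated DE2 skin lay below irradiated WT skin in all libraries, where by CPM they lay above it. Basal keratinocyte markers summed to 15719 to 20933 CPM in irradiated DE2 skin, against 2935 to 3848 CPM in irradiated WT skin. Most of both sums was Krt14, which averaged 15618 and 2299 CPM in these groups. Krt5 averaged 2492 and 917.1 CPM, Itga6 202.4 and 95.86, Itgb4 77.43 and 45.55, and Col17a1 261.9 and 156.6. The scale by Krt5 and Krt14 thus mainly follows Krt14, and whether it tracks the amount of basal keratinocytes was not tested. Per 1000 counts of the suprabasal keratins Krt1 and Krt10, Gjb6 had 72.4 ± 26.1 in irradiated DE2 and 56 ± 22.2 in irradiated WT skin, and Gjb2 149.8 ± 28 and 251.9 ± 117.3, with ranges that overlapped for both genes. The order of the irradiated genotypes for Gjb2 and Gjb6 thus changed with the scale, and untreated DE2 skin stayed the lowest group for both. It did so for Gja1 too, but per Krt5 and Krt14 count by little: the nearest libraries had 30.44 in untreated and 34.16 in irradiated DE2 skin.

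Several marker lists also differed between the groups, not all in the same direction. All 13 tested hair follicle markers rose with UVB in DE2 skin and were lower in untreated DE2 than in untreated WT skin by edgeR, where 14.4% of all genes were higher and 11.2% lower in these comparisons. Their sum was 8611 to 14093 CPM in irradiated DE2 skin, against 142.9 to 752.8 CPM in untreated DE2 skin, and 20854 to 24134 CPM in irradiated WT skin, against 10334 to 19882 CPM in untreated WT skin. Shh was at 0 in all untreated DE2 libraries. All 4 stress keratins (Krt6a, Krt6b, Krt16, Krt17), which mark activated epidermis, rose with UVB in DE2 skin by edgeR, and 3 did by DESeq2. In WT skin all 4 had log2 fold changes above 0 with UVB, with a median of 2.7 beside 0.03 over all genes and 3 unadjusted p under 0.05, but none passed by edgeR and 2 were higher by DESeq2. Of the 4, 3 were higher in irradiated DE2 than in irradiated WT skin, where 2.35% of all genes were. The count was 1 to 3 when 1 library was left out, and fell most without irradiated DE2 replicate 2 or irradiated WT replicate 3. The 4 summed to 17090 to 22008 CPM in irradiated DE2 skin, against 2647 to 4171 CPM in irradiated WT skin. In untreated skin they summed to 614.9 to 966.6 CPM in DE2, against 1179 to 1853 CPM in WT. The gap without UVB lay mostly in Krt17 (546.9 CPM on average in untreated DE2 and 1374 CPM in untreated WT skin), the 1 stress keratin called lower there; 2 of the 4 had log2 fold changes above 0, with a median of -0.17. Irradiated DE2 skin thus had the highest stress keratins, Gjb2 and Gjb6, with a hair follicle sum below that of irradiated WT skin. All 5 melanocyte markers rose with UVB in DE2 skin, beside 14.4% of all genes. They were also lower in untreated DE2 than in untreated WT skin, beside 11.2% of all genes. All 7 skeletal muscle markers fell with UVB in DE2 skin, beside 13.4% of all genes. That count was 5 to 6 when 1 library was left out. All 4 tested neutrophil markers rose with UVB in DE2 skin, beside 14.4% of all genes. In irradiated DE2 skin the list of 6 neutrophil markers summed to 36.82 to 215.4 CPM, against 1.52 to 9.101 CPM in irradiated WT skin. The part of hair follicle, melanocyte, muscle or neutrophil content or of epidermal state in the connexin values was not tested.

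**Figure D5:**
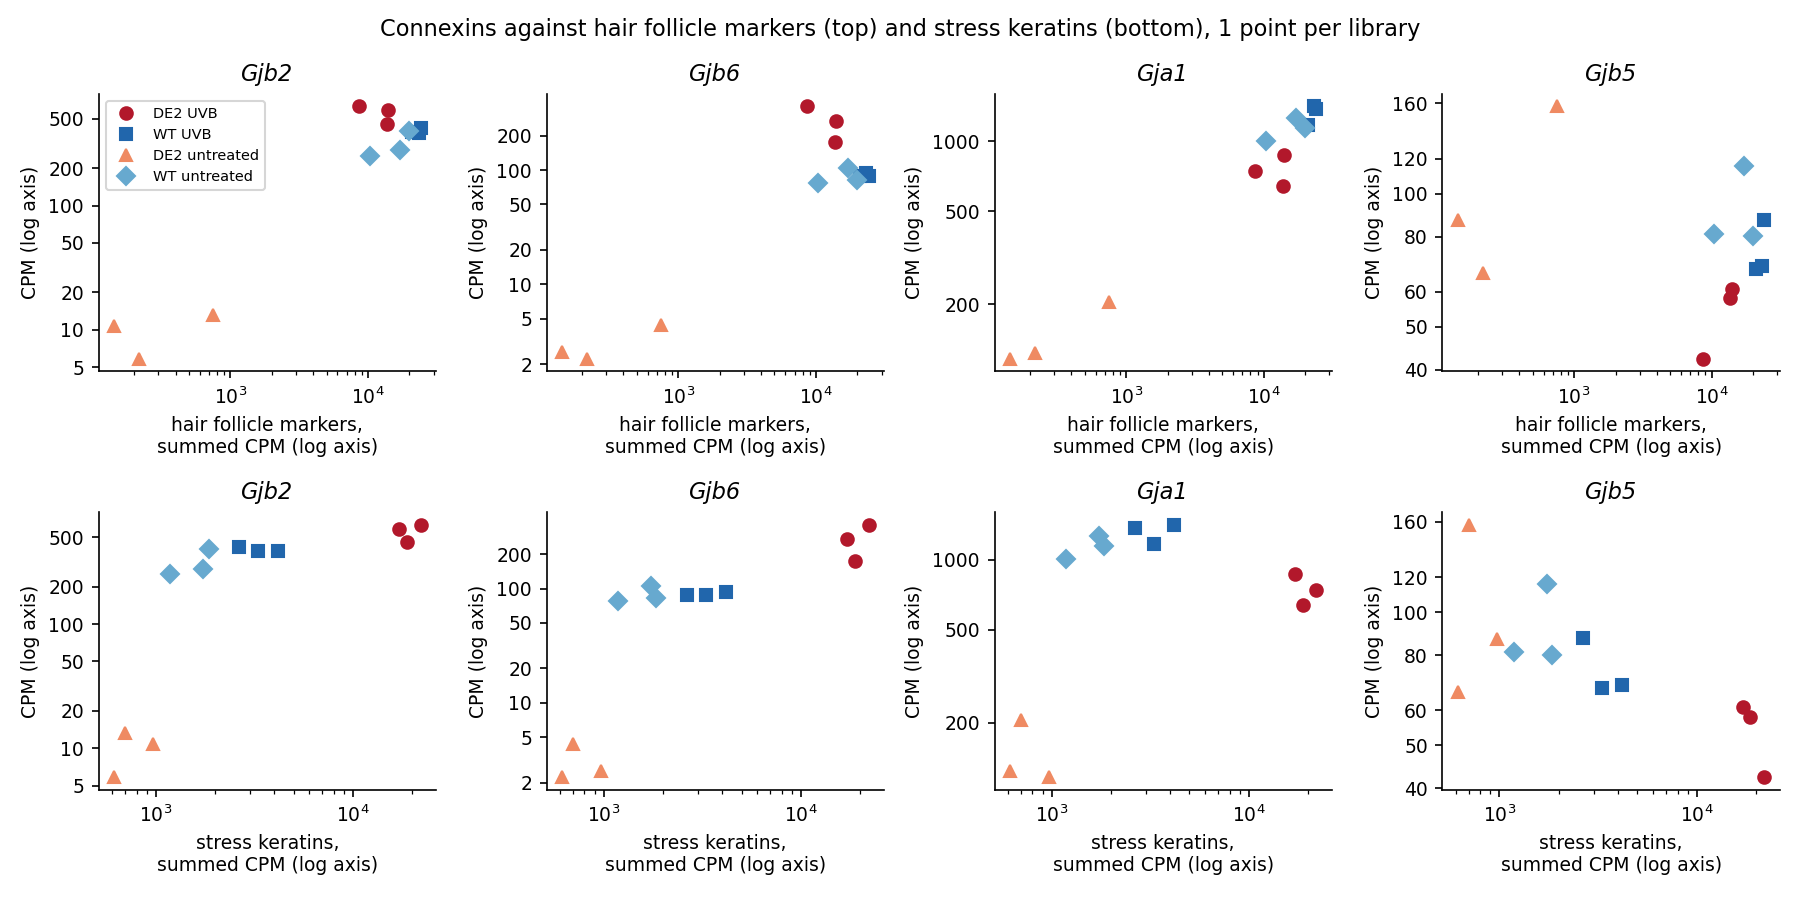
Level of each connexin in CPM against the summed CPM of hair follicle markers (top) and stress keratins (bottom), all on log axes, with 1 point per library and a colour and shape per group. Untreated DE2 skin lies apart at 142.9 to 752.8 CPM of hair follicle markers, and irradiated DE2 skin at 17090 to 22008 CPM of stress keratins.

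The genes with the most similar profile over the 12 libraries, by Pearson's r of log2 CPM among 13743 genes, were found for each connexin. The untreated DE2 libraries lie apart and can set these values, so r over the other 9 libraries, added after the data were seen, is given beside it. For Gjb2 they were Dsc2, a desmosomal cadherin (0.993, and 0.776 over 9), Tubb3 (0.987, 0.627), Gjb6 (0.982, 0.815), the hair keratin-associated Krtap28-13 (0.98, -0.004) and Gm11939 (0.98, 0.459). For Gjb6 they were Uox (0.988, 0.915), Gjb2, Dsc2 (0.981, 0.781), Msmo1 (0.975, 0.79) and Skil (0.973, 0.878). For Gja1 they were Dlx3, a homeobox factor of hair and epidermis (0.99, 0.88), Rnf149 (0.99, 0.891), the hair follicle keratin Krt73 (0.99, 0.877), Tgm6 (0.99, 0.878) and the hair keratin Krt33a (0.989, 0.811). For Gjb5 they were Tanc1 (0.936, 0.914), Crip2 (0.929, 0.9), Gfod2 (0.911, 0.846), Gata3 (0.907, 0.869) and the tight junction gene Cgn (0.899, 0.897).

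The median r with the hair follicle markers was 0.93 for Gjb2, 0.87 for Gjb6, 0.98 for Gja1 and -0.25 for Gjb5 over 12 libraries, and -0.39, -0.75, 0.79 and 0.63 over 9. The median r with the stress keratins was 0.64, 0.7, 0.37 and -0.67 over 12 libraries, and 0.86, 0.85, -0.64 and -0.79 over 9, in the same order of genes. Other lists had values of similar size over 9 libraries: the median r with the fibroblast markers was 0.68 for Gjb2, 0.83 for Gjb6, -0.74 for Gja1 and -0.85 for Gjb5, and with the adipocyte markers -0.77, -0.62, 0.45 and 0.73. Points share library and depth, and these values are descriptions.

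Genes of connexin binding and turnover were tested as a list of 12. With UVB in DE2 skin 3 were lower and none was higher by edgeR, where 13.4% of all genes were lower and 14.4% higher, with a median log2 fold change of 0.03 beside 0.02 over all genes; 6 of the 12 had an unadjusted p under 0.05, and DESeq2 called 1 higher. Prkca, a kinase that phosphorylates connexin 43, averaged 12.33 CPM in irradiated and 37.3 CPM in untreated DE2 skin (-1.59 ± 0.36, edgeR adjusted p = 0.0049). Cav1, the coat protein of caveolae, fell as well (-1.27 ± 0.31, adjusted p = 0.00705). Without UVB 1 was higher and 1 was lower in DE2 than in WT skin by edgeR, beside 11.8% and 11.2% of all genes. These counts were 0 to 2 each when 1 library was left out. Calls were fewer without any 1 of the 6 other than untreated DE2 replicate 1. DESeq2 called 2 higher and 3 lower, and 6 of the 12 had an unadjusted p under 0.05 by edgeR. With UVB no member passed between genotypes by edgeR or DESeq2, and 1, Prkca, had an unadjusted p under 0.05 (-1.07 ± 0.36, adjusted p = 0.145).

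The list of extracellular nucleotide signalling, whose ligand ATP can leave cells through hemichannels, had 10 tested members, of which 2 were higher and 2 lower with UVB in DE2 skin, beside the same shares of all genes. P2rx4, an ATP-gated channel, rose (1.21 ± 0.28, edgeR adjusted p = 0.00554), and so did Entpd1, an enzyme that degrades extracellular ATP and is carried by many leukocytes (1.95 ± 0.48, adjusted p = 0.00717). Entpd1 was also the 1 member higher in irradiated DE2 than in irradiated WT skin by edgeR (1.87 ± 0.48, adjusted p = 0.0481), beside 2.35% of all genes. That call was lost when any library of the pair other than irradiated DE2 replicate 3 was left out (adjusted p = 0.0859 to 0.197, in a range over the alternatives of 0.000115 to 0.197). DESeq2 called 2 members higher there, and 3 of the 10 had an unadjusted p under 0.05 by edgeR. Of 5 macrophage markers 1 was called higher in that comparison by edgeR, beside 2.35% of all genes. This was Cd14, which averaged 255.9 CPM in irradiated DE2 and 13.32 CPM in irradiated WT skin. All 5 had log2 fold changes above 0, with a median of 0.92 beside -0.03 over all genes. An unadjusted edgeR p under 0.05 was found for 3. The 5 summed to 352.5 to 547.9 CPM in irradiated DE2 skin, against 74.19 to 194.8 CPM in irradiated WT skin. Csf1r differed least by mean, with 62.26 and 56.45 CPM in the same groups. The part of macrophage content in Entpd1 was not tested. The count of lower members with UVB in DE2 skin was 0 to 2 when 1 library was left out, being under 2 without any 1 of them other than irradiated DE2 replicate 2.

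Of 14 tight and adherens junction genes, 7 were higher and 1 lower with UVB in DE2 skin, where 14.4% and 13.4% of all genes were, with a median log2 fold change of 1.01 beside 0.02 over all genes. F11r, a junctional adhesion molecule, averaged 190.8 CPM in irradiated and 82.8 CPM in untreated DE2 skin (1.2 ± 0.18, edgeR adjusted p = 0.000221). Nectin4, an adherens junction receptor, rose by 1.3 ± 0.21 (adjusted p = 0.000492), and Ctnnd1, the cadherin-binding p120 catenin, by 1.43 ± 0.25 (adjusted p = 0.000729) on the log2 scale. Without UVB 6 were lower in DE2 than in WT skin and none was higher, where 11.2% of all genes were lower and 11.8% higher, with a median of -0.69 beside 0.03. They included Nectin4 (-1.29 ± 0.21, adjusted p = 0.000692), the placental cadherin gene Cdh3 (-2.23 ± 0.38, adjusted p = 0.0009) and the claudin Cldn4 (-1.72 ± 0.3, adjusted p = 0.00107). The count was 3 without untreated DE2 replicate 2. With UVB none of the 14 passed between genotypes by edgeR or DESeq2, and 3 had an unadjusted p under 0.05, the smallest that of Ctnnd1 (0.68 ± 0.24, adjusted p = 0.164). Hair follicle markers moved the same way in these comparisons, and their part was not tested.

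Of 14 keratinocyte transcription factors, 7 were higher and none was lower with UVB in DE2 skin, where 14.4% and 13.4% of all genes were, with a median of 0.66 beside 0.02 over all genes. Junb, a subunit of AP-1, averaged 393.8 CPM in irradiated and 91.5 CPM in untreated DE2 skin (2.11 ± 0.27, edgeR adjusted p = 7.47e-05). Cebpb (1.13 ± 0.19, adjusted p = 0.000561) and Ovol1, a zinc finger factor of epidermal differentiation (1.64 ± 0.27, adjusted p = 0.000599), also rose. Without UVB 2 were higher and 4 lower in DE2 than in WT skin, beside 11.8% and 11.2% of all genes, the lower including Grhl1 (-1.32 ± 0.22, adjusted p = 0.000898) and Ovol1 (-1.42 ± 0.27, adjusted p = 0.00217). The 2 higher, named after their values were seen, were the AP-1 genes Jun (0.73 ± 0.2, adjusted p = 0.0171) and Fos (1.6 ± 0.52, adjusted p = 0.0392). Fos had 35.34, 35.94 and 144.2 CPM in untreated DE2 skin, against 27.65, 20.27 and 23.14 CPM in untreated WT skin, and its call was lost without untreated DE2 replicate 3 (adjusted p = 0.301) or any 1 untreated WT library (0.0879 to 0.143), in a range over the alternatives of 1.23e-06 to 0.301. The Jun call was lost with only the libraries compared (0.058) and without untreated DE2 replicate 2 (0.0741) or untreated WT replicate 1 or 3 (0.101), in a range of 0.00257 to 0.101. The counts of higher and lower members were 0 to 2 and 2 to 6 when 1 library was left out. Jun, Fos or both lost their call without any 1 of the 6 other than untreated DE2 replicate 1. Klf4, a factor of the upper epidermis, was the 1 member higher in irradiated DE2 than in irradiated WT skin by edgeR (0.9 ± 0.21, adjusted p = 0.032), beside 2.35% of all genes. That call was lost when any 1 of the 6 libraries was left out (adjusted p = 0.0674 to 0.132, in a range over the alternatives of 0.00396 to 0.132). DESeq2 called 3 members higher. Of the 14, 11 had log2 fold changes above 0, with a median of 0.51 beside -0.03 over all genes. An unadjusted edgeR p under 0.05 was found for 7.

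With UVB in WT skin, none of these 4 lists had a member past the threshold by edgeR or by DESeq2. An unadjusted p under 0.05 was found for 1 partner gene (Cav1, -0.67 ± 0.31), 1 nucleotide signalling gene (P2rx4, 0.66 ± 0.28), 1 transcription factor (Trp63, -0.55 ± 0.22) and no junction gene. Cav1 and P2rx4 had the same sign here as with UVB in DE2 skin. That WT values miss the threshold does not show that WT skin was without a response, and the test of the difference between genotypes is the interaction.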

How the data were processed

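The files hold raw read counts per Ensembl gene, deposited by the authors without normalization, for 12 libraries. Trimmomatic 0.39, HTSeq 2.0.2, SAMtools 1.16, Picard 3.1.0 and build GRCm38 are named by the submitters' processing notes. For the aligner, the annotation release and the strand setting the sources used here give nothing. Gene symbols, positions and exon lengths came from GENCODE M21 (GRCm38), which named 53360 of 53465 identifiers, and upstream sequences from RefSeq.

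Counts were scaled by TMM, filtered by filterByExpr and fitted with edgeR 4.0.16 (robust quasi-likelihood, 1 mean per group, all 12 libraries, limma 3.58.1, R 4.3.3), with Benjamini-Hochberg adjustment over 15126 genes and a threshold of 0.05. The common biological coefficient of variation was 35.8%. CPM are TMM-scaled. An SE of a log2 fold change is its size divided by the root of the F statistic. The procedure was tested on simulated data with known changes in a small part of the genes. For UVB in WT skin it recovered 14% of 2-fold and 65% of 4-fold changes. For the interaction it recovered 1% and 34%, and for the other comparisons 8 to 14% and 60 to 62%. Changes of these sizes can thus be missed. In the data 27.8% of all genes were called for UVB in DE2 skin and 23% for DE2 without UVB. The simulation changed far fewer, so its recovery may differ from that of these comparisons. Between single values, 3 libraries against 3 cannot give an exact permutation p under 0.1.

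The members and the gene lists were chosen with earlier results of these data known. Of each related list, up to 3 genes with the smallest p among those called are named per comparison, or the gene with the smallest p where none was called, and for each member the 5 genes of highest r, counting genes whose log2 CPM (prior count 1) averaged 1 or more. Other called genes are counted and not named, except where said. Some genes are not reported here and were left out of the lists. The alternatives were RLE scaling, DESeq2 1.42.0, no filter, a stricter filter, only the libraries compared, each library left out, and 2 libraries of unusual muscle content left out. Longest transcripts, r over 9 libraries and list and connexin counts under each alternative were added after the data were seen.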

Additional observations from a re-analysis of the deposited data

Results flagged for a closer look

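By edgeR's interaction term over all genes, the UVB effect differed between DE2 and WT skin for 7 related genes named by the rule. The rule takes genes past the threshold first, so these 7 are not a share to set beside all genes. In the full lists, 1 of 12 genes of connexin binding and turnover passed, and 0 of 10 of nucleotide signalling. Of the junction genes 4 of 14 passed, and of the transcription factors 4 of 14, where 10.5% of all genes did. Of the junction genes, Ctnnd1 had an interaction of 1.66 ± 0.34 on the log2 scale (adjusted p = 0.00755), Nectin4 of 1.43 ± 0.3 (adjusted p = 0.00778) and F11r of 1.13 ± 0.25 (adjusted p = 0.0109). Of the transcription factors, Junb had 1.7 ± 0.38 (adjusted p = 0.0114), Tfap2c 1.55 ± 0.38 (adjusted p = 0.0184) and Cebpb 0.88 ± 0.26 (adjusted p = 0.0451). Of the genes of connexin binding and turnover, Prkca had -1.92 ± 0.5 (adjusted p = 0.026).

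Of these calls, 3 were lost in some of the 12 fits with 1 library left out: Tfap2c in 2, Prkca in 7 and Cebpb in 8. The Tfap2c call was lost without irradiated DE2 replicate 2 or untreated DE2 replicate 3 (adjusted p = 0.0503 to 0.0507, lowest over the alternatives 0.0022). The Prkca call was lost without irradiated DE2 replicate 2 or 3, untreated DE2 replicate 2 or 3, irradiated WT replicate 2, or untreated WT replicate 1 or 3 (0.0562 to 0.0769, lowest 0.00539). The Cebpb call was lost with no filter (0.123) and without any irradiated DE2 replicate, untreated DE2 replicate 2 or 3, irradiated WT replicate 1 or 2, or untreated WT replicate 2 (0.0679 to 0.0968, lowest 0.0198). All 7 values use the untreated DE2 libraries, whose hair follicle, melanocyte and muscle markers stand apart.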

How the results depend on the processing

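Of 260 recomputed fold changes of the 4 connexins, 250 moved by less than 1 SD between replicates, and 10 by more. The 10 are Gja1 and Gjb5 without untreated DE2 replicate 1, alone or together with irradiated WT replicate 2. Without both, UVB in DE2 skin gave -0.52 for Gjb5 and 2.64 for Gja1, and DE2 over WT without UVB gave -0.27 for Gjb5 and -3.24 for Gja1. Leaving out 1 library at a time gave Gjb5 -1.21 to -0.52 with UVB in DE2 skin, -0.27 to 0.44 for DE2 without UVB and -0.91 to -0.2 for the interaction, and Gja1 2.17 to 2.64, -3.24 to -2.75 and 1.94 to 2.43. The number of all genes called was less stable. For UVB in WT skin it was 3, and 22 by DESeq2, 141 with no filter, 0 with only the libraries compared, 19 without both libraries, and 0 to 8 with 1 left out. For DE2 with UVB it was 448, and 876 by DESeq2, 1031 with no filter, 754 without both libraries, and 130 to 432 with 1 left out. It was 2108 to 3881 with 1 left out for DE2 without UVB (3477 with all, 4226 without both), and 2438 with no filter and 878 to 2585 with 1 left out for the interaction (1585 with all). Other connexins called for DE2 with UVB numbered 0 to 1 with 1 library left out. The number of the 4 connexins past the threshold changed as follows. The number lower was 0 in place of 1 for UVB in DE2 skin with only the libraries compared, without both libraries, without untreated DE2 replicate 1 and without any 1 irradiated DE2 library, and 1 in place of 0 for DE2 with UVB by DESeq2, with no filter and without both libraries. Among genes that the naming rule gives but the results do not describe, the calls of Nedd4 and P2ry2 with UVB in DE2 skin and of Cav1, Dbn1, P2ry1, P2ry2 and Tfap2a for DE2 without UVB were each lost in 2 to 5 of the 6 fits with 1 library left out, at adjusted p of 0.0514 to 0.198. The cause of these shifts was not tested. No paired analysis was possible because the labels give no replicate numbers or animals; replicates were numbered in accession order. Depth limits Gjb6 in untreated DE2 skin to 8 to 18 counts.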
